A study of Drosophila melanogaster with 3 samples.

Results

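Of the 7089 reproducible CG44002-eGFP peaks, 770 (10.9%, 95% interval 10.1% to 11.6%) had their summit between the starts of 2 protein-coding genes that point away from each other and lie at most 1000 bp apart. These divergent summits made up 30.0% of the 2565 peaks within 500 bp of a gene start. They were picked by position, from the highest point of each reproducible peak and the annotated transcript starts, and neither signal nor base composition entered that rule. They lay between 710 pairs of genes, of which 650 held 1 summit and 60 held 2, and were flanked by 1464 genes in all. In 619 of the 770 cases no other coding start fell inside the gap, that is, the DNA between the 2 starts. In the other 151 an alternative start of a flanking gene or the start of an overlapping gene lay inside it. An annotated exon covered the summit in 104 of these 151 cases and in 23 of the 619.

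A pair of neighbouring genes read outward from a shared stretch of DNA is called a divergent or head-to-head pair. The shared stretch usually holds a core promoter for each gene, with a region that is poor in nucleosomes between them, and a single bound protein can lie within reach of both. Such pairs are common in the compact genome of Drosophila, where many of them encode proteins of general cell maintenance. Their promoters often carry short sequence elements such as the DRE, which is bound by Dref, and sites of the insulator protein BEAF-32. Promoters of developmentally regulated genes more often carry TATA boxes, initiators and GAGA sites.

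The data come from chromatin immunoprecipitation and sequencing (ChIP-seq) of whole Drosophila melanogaster prepupae of both sexes, in 3 biological replicates that form 1 group. All animals carried CG44002 fused to eGFP, and the precipitation used an antibody against GFP according to the sample descriptions. The strain is named CG34406-GFP and the antibody entry of the labels gives CG34406, so the labels conflict on the tagged gene, and the name CG44002-eGFP is used here as the descriptions give it. Chromatin was sonicated to 200 to 800 bp, so a summit can be displaced from the bound base by less than a fragment, and whole animals mix all tissues. The control was not analysed here. Read depth is unknown from peak lists, and the number of replicates limits the precision.

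The main list was thresholded by the irreproducible discovery rate (IDR) and combines the replicates, so it gives single values without an SD. For the spread between replicates, each replicate list was shortened to as many peaks as the IDR list has, taken from the highest signal down, which is called its top N. The shortened lists held 824, 867 and 690 divergent summits in replicates 1, 2 and 3. Divergent summits were set against 1493 one-directional summits of the IDR list, which lay within 500 bp of a coding start that borders no such gap. The replicates held 1557, 1483 and 1662 of those.

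The gaps under the strongest reproducible summits show what these regions look like. The following 5 are the highest-signal divergent summits found in the top N of all 3 replicates whose gap is at most 300 bases long and free of annotated exons. Each is given 5′ to 3′ on the plus strand of the dm6 genome, from the base after the left, minus-strand start to the base before the right, plus-strand start. Capitals mark the 20 bases around the summit. All 5 are intergenic, and the summit stands near the middle of each.
Tcs5 and CHMP2B, chr3L:5139396-5139618: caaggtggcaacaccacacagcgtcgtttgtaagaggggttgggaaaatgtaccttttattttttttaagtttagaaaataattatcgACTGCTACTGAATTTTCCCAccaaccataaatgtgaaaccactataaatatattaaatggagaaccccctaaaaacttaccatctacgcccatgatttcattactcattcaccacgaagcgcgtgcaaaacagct
Art3 and mRpS10, chr3R:15229409-15229664: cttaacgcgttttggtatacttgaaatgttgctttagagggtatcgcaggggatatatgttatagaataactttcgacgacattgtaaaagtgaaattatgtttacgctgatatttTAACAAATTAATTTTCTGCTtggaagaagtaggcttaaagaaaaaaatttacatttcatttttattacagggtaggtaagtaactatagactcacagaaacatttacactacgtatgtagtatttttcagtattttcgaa
CG13390 and CG17294, chr2L:8376798-8377034: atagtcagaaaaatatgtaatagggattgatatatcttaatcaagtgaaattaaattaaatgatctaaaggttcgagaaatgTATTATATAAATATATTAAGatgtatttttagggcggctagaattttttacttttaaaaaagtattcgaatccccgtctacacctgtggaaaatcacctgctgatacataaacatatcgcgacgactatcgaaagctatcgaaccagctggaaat
fws and Lamtor3, chr2L:17481030-17481230: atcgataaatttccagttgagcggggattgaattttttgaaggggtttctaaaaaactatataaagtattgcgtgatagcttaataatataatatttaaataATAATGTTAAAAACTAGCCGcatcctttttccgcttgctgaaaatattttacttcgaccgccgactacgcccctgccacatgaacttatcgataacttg
CG3437 and CG3552, chr3L:9457670-9457911: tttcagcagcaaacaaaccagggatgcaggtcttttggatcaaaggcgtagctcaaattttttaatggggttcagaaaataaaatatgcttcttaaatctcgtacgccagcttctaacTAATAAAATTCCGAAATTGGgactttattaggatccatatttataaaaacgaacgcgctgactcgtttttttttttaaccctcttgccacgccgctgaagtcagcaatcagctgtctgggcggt

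The gap of Tcs5, for an enzyme of tRNA modification, and CHMP2B, for a membrane-remodelling ESCRT-III subunit, ranked 18 in the IDR list by signal. The summit lay 99 bp from the Tcs5 start in a gap of 224 bp. Art3, for an arginine methyltransferase, and mRpS10, for a mitochondrial ribosomal protein, followed at rank 23, with the summit 127 bp from the Art3 start in a gap of 257 bp. In the 100 bp around these 5 summits, A or T made up 67% to 79% of the bases.

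The next set shows where short elements of core promoters lie in such gaps. It holds the highest-signal divergent summit for each of 5 elements, under the same limits of length and annotation, with the element, in capitals, inside both the gap and the 200 bp around the summit. Where the gap is printed above, only the stretch around the element is shown. The elements searched, on both strands, were the DRE string TATCGATA, the M1BP string GGTCACACT, Ohler 7 CANCNCTA, Ohler 6 GTATNTTT and the E-box CAGCTG.
DRE, fws and Lamtor3, chr2L:17481193-17481230: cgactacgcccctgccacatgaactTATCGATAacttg
M1BP, CG13690 and RpLP1, chr2L:419653-419951: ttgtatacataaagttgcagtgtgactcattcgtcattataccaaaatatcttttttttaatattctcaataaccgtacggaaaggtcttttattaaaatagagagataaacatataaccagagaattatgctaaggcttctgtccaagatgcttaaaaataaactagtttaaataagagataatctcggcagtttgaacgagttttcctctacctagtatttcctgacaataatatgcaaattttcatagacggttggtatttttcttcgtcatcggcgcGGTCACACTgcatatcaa
Ohler 7, Atat and Shc, chr3L:9426759-9427009: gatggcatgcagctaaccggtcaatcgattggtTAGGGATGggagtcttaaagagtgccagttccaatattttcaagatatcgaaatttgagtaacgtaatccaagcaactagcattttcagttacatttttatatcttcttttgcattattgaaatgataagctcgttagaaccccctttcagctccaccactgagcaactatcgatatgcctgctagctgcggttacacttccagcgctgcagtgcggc
Ohler 6, CG13390 and CG17294, chr2L:8376877-8376936: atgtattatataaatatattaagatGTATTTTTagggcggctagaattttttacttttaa
CAGCTG E-box, Ing5 and CG7099, chr2L:13387313-13387570: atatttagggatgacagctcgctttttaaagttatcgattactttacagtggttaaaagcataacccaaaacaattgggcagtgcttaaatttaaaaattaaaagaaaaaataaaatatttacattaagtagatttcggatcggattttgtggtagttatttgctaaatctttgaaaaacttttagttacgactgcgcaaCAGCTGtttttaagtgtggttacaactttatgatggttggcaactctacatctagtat

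Fewer than 1 in 4 gaps between divergent coding genes held an IDR summit, and the share differed widely with the length of the gap. A gap counts as holding a summit, and is called occupied, only where the summit point lay inside it. The median IDR peak was 430 bp wide, so a peak can cover a short gap with its summit past a start. Such a gap counts as unoccupied, and how many there were was not counted. Of 2510 gaps with no other coding start inside, 574 (22.9%, 95% interval 21.2% to 24.6%) held an IDR summit. The replicates gave 24.7%, 26.3% and 20.7% (mean 23.9% ± 2.90, SD, n = 3). A top N summit was found in all 3 replicates in 418 gaps and in none in 1720. Of the 1936 gaps without an IDR summit, 315 held a summit of the weaker pooled list and 1141 held none in any list.

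Gaps of up to 100 bp almost never held a summit, with 11 of 416 (2.64%) in the IDR list and 3.04% ± 0.972 in the replicates. Those of 101 to 200 bp held one in 9.33% ± 1.54 of cases. The share rose to 35.8% ± 4.70 at 201 to 300 bp and 39.1% ± 5.93 at 301 to 400 bp, and was 21.2% ± 0.368 at 801 to 1000 bp (SD, n = 3 for each). Replicate 3 had the lowest share in each class from 101 to 800 bp. Per kilobase of gap, summits were densest at 201 to 300 bp (1.31 in the IDR list) and 301 to 400 bp (1.25), against 0.466 at up to 100 bp and 0.293 at 801 to 1000 bp. Gaps with an IDR summit had a median length of 347.5 bp and those without one of 275.5 bp.

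**Figure D1:**
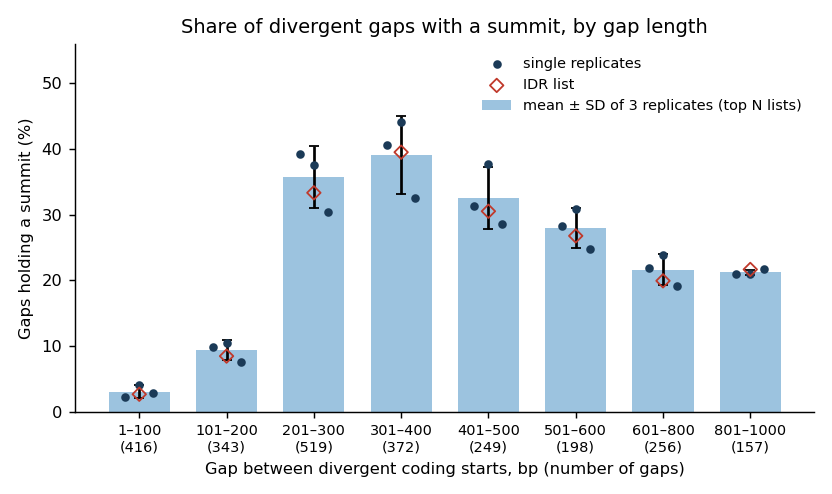
Share of gaps between divergent coding starts that held a summit, in percent, by gap length in bp, with the number of gaps in brackets. Bars and whiskers are the mean and SD of the top N lists of 3 replicates, dots the replicates and diamonds the IDR list. The share was 3.04% at up to 100 bp and 39.1% at 301 to 400 bp.

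The nearer start lay 50 to 200 bp from most summits. This distance cannot exceed the distance to the middle of the gap, and the median gap of the members was 364 bp, so gap length limits it. The median distance was 112 bp (quartiles 73 and 153 bp) in the IDR list, and 104, 110 and 109 bp in replicates 1, 2 and 3 (107.7 bp ± 3.21, SD, n = 3). The share at 50 to 200 bp was 73.8% in the IDR list and 72.8% ± 1.49 in the replicates. The farther start was at a median of 246 bp. The nearer start was the right, plus-strand one for 423 of 770 summits (54.9%, 95% interval 51.3% to 58.5%) and for 52.2%, 52.6% and 52.8% of summits in the replicates.

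In gaps of 201 to 300 bp this band coincided with the middle: the median distance was 98 bp, where the middle would be 127 bp away, and 68.4% of summits lay in the central part of the gap, between 1/3 and 2/3 of its length. As gaps lengthened past 400 bp, the median distance to the nearer start stayed at 138 to 170 bp and the share in the central part fell. That share was 42.6% at 401 to 500 bp, 41.7% at 501 to 600 bp and 25.9% at 601 to 800 bp. At 501 to 600 bp the median distance was 170 bp, and at 801 to 1000 bp it was 154.5 bp, where the middle lay 441 bp away and 13.0% of summits were in the central part. Over all members the central part held 48.6% (95% interval 45.0% to 52.2%), and 44.3%, 48.2% and 46.4% in the replicates. Of the 211 summits in gaps over 500 bp, 142 (67.3%) were within 200 bp of a start and 29 (13.7%) within 50 bp of the middle. The stretches within 200 bp of the starts make up much of such a gap, and that around the middle little of it. One-directional summits also lay mostly upstream (1218 of 1493), at a median of 212.5 bp from the start.

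**Figure D2:**
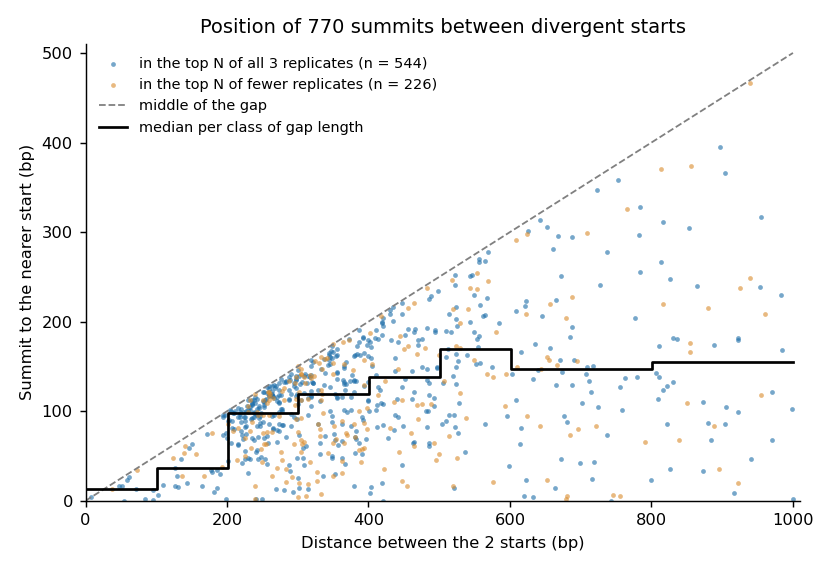
Distance of each of the 770 divergent summits to the nearer start against the length of the gap, both in bp. Colours give support by the replicates, the dashed line is the middle of the gap and the stepped line the median per class of gap length. Points follow the middle in gaps of 201 to 300 bp, where the median is 98 bp, and fall below it in longer gaps.

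The shortest and longest gaps show both ends of this range. SerRS, for the enzyme that charges tRNA with serine, and CG17260 start 8 bp apart, and the summit (rank 643) lay between them, in the top N of all 3 replicates. CG14817 and CG14805 start 47 bp apart (rank 2034), and CG32022 and CG6511 start 52 bp apart (rank 171). In the longest gap, 1000 bp between RpS7, for a ribosomal protein, and Anp, for an antibacterial peptide of the male tract, the summit lay 2 bp from the RpS7 start. In the gaps of hts and CalpA (999 bp) and of Ance and Smg5 (984 bp) the summit lay 103 bp from hts, for an adducin, and 168 bp from Ance, for a peptidase.

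In 50 gaps there were 2 member summits, with 204.5 bp between them at the median (199 to 730 bp). These gaps had a median length of 482.5 bp. At p38a, for a stress-activated kinase, and CG6178, 1 summit lay 69 bp from p38a (rank 62) and the other 78 bp from CG6178 (rank 1733). Likewise 2 summits lay 4 bp from Hsc70-5, for a mitochondrial chaperone (rank 618), and 77 bp from CG8531 (rank 2278). No peak of replicate 3 covered either of these 2. The p38a and CG6178 summits had the same peak borders in the IDR list, and in replicates 2 and 3 a single peak covered both. No pair of summits in 1 gap was closer than 199 bp, and whether nearer summits could be resolved in these lists was not tested.

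Divergent summits had a higher median rank than one-directional ones among the top N peaks, but hardly so among the 5000 strongest. The signal value is the authors' own and its scale is not stated, so ranks within each list were used, as a percentile on which 100 is the strongest. The median percentile was 57.8, 58.3 and 60.3 for divergent summits of replicates 1, 2 and 3, against 52.9, 53.4 and 51.2 for one-directional summits. The difference was 6.27 ± 2.47 (SD, n = 3) and above 0 in 3 of 3 replicates. An exact sign-flip permutation test of 3 differences cannot give a two-sided p under 0.25, the value found here (0.3125 after Benjamini-Hochberg adjustment over 5 such tests). In the IDR list the medians were 59.9 and 54.4. Among the 5000 highest-signal peaks of each replicate the difference was 1.35, above 0 in 2 of 3 replicates (exact permutation p = 0.75). Of the 708 strongest peaks of the IDR list, 108 (15.3%) were divergent and 230 (32.5%) one-directional, and of the 709 weakest, 45 (6.35%) were divergent and 142 one-directional. The strongest thus held 108 of 770 divergent and 230 of 1493 (15.4%) one-directional summits, and the weakest held 5.84% and 9.51%. Median peak widths were 404, 400 and 400 bp for both classes in the 3 replicates, a measure with little room to differ, since 59.9% of divergent and 58.6% of one-directional peaks of the IDR list were exactly 430 bp wide.

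Of the divergent summits, 544 (70.6%, 95% interval 67.3% to 73.8%) lay in top N peaks of all 3 replicates, against 990 of 1493 one-directional summits (66.3%) and 67.4% of all IDR peaks. The IDR list was made from these replicates, so this share describes it and does not test it. Support was uneven: 91.9% and 91.8% of divergent summits were in the top N of replicates 1 and 2 and 80.3% in that of replicate 3, whereas one-directional summits gave 87.1%, 82.9% and 84.1%. The summit of the covering replicate peak lay 18.3 bp ± 2.89 from the IDR summit at divergent promoters and 17.7 bp ± 2.52 at one-directional ones (median per replicate, SD, n = 3).

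The 3 highest-ranking pairs join genes of unlike function. Ugalt, for a UDP-galactose transporter of the Golgi, and eIF2Bbeta, for a subunit of the exchange factor of translation initiation, shared the summit at rank 5 of the IDR list, with signal values of 951, 831 and 613 in replicates 1, 2 and 3. It ranked 5, 4 and 3 in their lists, 43 bp from the Ugalt start in a gap of 719 bp. PNPase, for a mitochondrial RNA-degrading enzyme, and Gprk2, for a kinase of G protein-coupled receptors, came next at rank 6, with values of 881, 745 and 538. Chro, for the chromatin protein Chromator, and Ssl1, for a subunit of TFIIH, followed at rank 13 with values of 783, 664 and 468. Signal values were highest in replicate 1 and lowest in replicate 3 in all 3 pairs, and the scale may differ between the replicate lists, so ranks are compared instead.

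Ranks 14, 15, 23 and 52 were the gaps of mRpL41 and CG8079, CenG1A and mRpS23, Art3 and mRpS10, and CG9004 and mRpL23, each with 1 gene for a mitochondrial ribosomal protein. The summit was nearer to the mitochondrial gene in the mRpL41 pair alone. Also among the 20 strongest was the gap of CG18428 and eIF4EHP, for a cap-binding repressor of translation (rank 31). Pal1, for an enzyme of peptide amidation, with Pdrg1 followed at rank 46. Lamtor3, for a subunit of the Ragulator complex on lysosomes, with fws, for the Golgi tethering subunit Cog5, came at rank 47. CG1602 with PIG-G, for an enzyme of GPI anchor synthesis (rank 64), and bves with Stt3A, for a subunit of oligosaccharyltransferase (rank 67), were in the group together with CG11309 and CG7632, CG13390 and CG17294, CG8360 and CG8372, CG3552 and CG3437, and CG11357 and CG32243. In 18 of these 20 gaps the summit lay 69 to 165 bp from the nearer start. At the other end, the 5 lowest signals ran from 85.2 to 86.0, at Tusp and dsd, cl and CG7382, CG15390 and CG3609, wcy and CG4949, and CG10663 and CG33725.

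The X chromosome had a smaller share of occupied gaps than the large autosomal arms. On X, 62 of 397 gaps (15.6%, 95% interval 12.2% to 19.6%) held an IDR summit, and 15.1%, 17.4% and 15.1% in the replicates (15.9% ± 1.31, SD, n = 3). The 4 large autosomal arms held 22.2% to 26.0% in the IDR list, with replicate means of 23.4% to 27.6%, and in no replicate did one of them fall to the value of X. This concerns divergent gaps only: X had 1358 IDR peaks of any kind, against 1210 to 1621 on each of those arms. Gaps on X were of ordinary length (median 300 bp, against 274 to 310 bp on the autosomal arms), and 65.4% of their central 100 bp was A or T, against 65.5% to 68.4%. None of the 12 gaps on chromosome 4 held an IDR summit (95% interval 0% to 26.5%). Replicate 3 alone had top N summits there, in 16.7% of these gaps.

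Divergent summits stood in DNA richer in A and T than one-directional summits, but little richer than the IDR list as a whole. In that list A or T made up 69.3% of the 100 bp around divergent and 65.5% around one-directional summits. It made up 68.4% around peaks away from coding starts and 67.8% over all peaks. By the rule divergent summits lie upstream of both bordering starts, whereas 1218 of the 1493 one-directional summits lay upstream of theirs. What this adds to the difference between the classes was not tested. In the 100 bp around the summit 68.9%, 69.4% and 69.1% of bases were A or T in replicates 1, 2 and 3, against 64.8%, 66.6% and 63.4% at one-directional summits. The groups did not overlap, and the difference was 4.19 percentage points ± 1.45 (SD, n = 3, above 0 in 3 of 3, exact permutation p = 0.25, the smallest possible, adjusted 0.3125). Among the stronger peaks of each list, cut at the median signal, it was 2.44 points. The share also went with signal, at 73.0% for divergent and 71.1% for one-directional summits among the 708 strongest peaks of the IDR list, and 61.8% and 58.9% among the 709 weakest. Around divergent summits of the IDR list it was 70.0% in the 20 bp bin centred 20 bp to the left, 60.7% at 120 bp to the right and 53.3% at 300 bp to the right. Turned so that the nearer start is on the right, the profile leaned away from that start, with 72.3% at 40 bp on the far side and 65.5% at 40 bp on the near side. In the 726 cases with a gap of at least 200 bp, the summit lay a median of 57.25 bp from the AT-richest 100 bp of the gap and 62.25 bp from its middle, and 45.6% lay within 50 bp of that stretch. In gaps over 500 bp these distances were 149.5 and 174 bp, and 24.2% lay within 50 bp of the stretch.

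**Figure D3:**
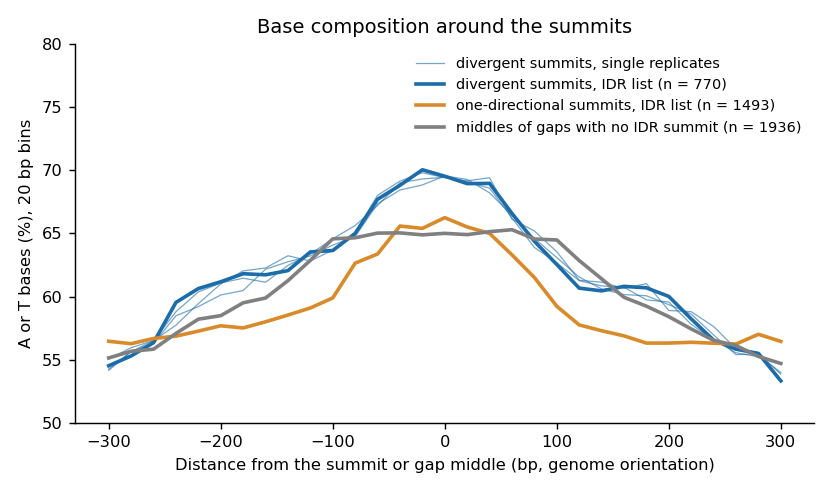
Percent of bases that are A or T in 20 bp bins, by distance in bp from divergent summits (IDR list and each replicate), one-directional summits and the middles of gaps without an IDR summit. At the centre the IDR lines stand at 69.5%, 66.2% and 65.0%.

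Occupied gaps were richer in A and T than unoccupied ones, by a margin that differed with gap length. In the central 100 bp, gaps with a top N summit had 72.5%, 72.4% and 72.3% A or T in replicates 1, 2 and 3, against 64.8%, 64.7% and 65.3% in gaps without one, a difference of 7.48 ± 0.396 points (SD, n = 3, exact permutation p = 0.25, the smallest possible, adjusted 0.3125). In gaps over 200 bp, a comparison added after seeing the data, the difference was 3.84 points, with 73.1% ± 0.185 in occupied and 69.2% ± 0.287 in unoccupied gaps. By length it was 7.32 ± 0.591 at 101 to 200 bp, 4.97 ± 0.421 at 201 to 300 bp, 4.02 ± 0.435 at 301 to 400 bp, 1.60 ± 1.22 at 401 to 500 bp and 2.00 ± 0.152 at 501 to 1000 bp, above 0 in 3 of 3 replicates each time. In gaps of up to 100 bp it was -0.97 ± 1.89, above 0 in 1 of 3.

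In the 200 bp around each summit 12 strings were searched. DRE, CGATA, Ohler 7, TATAAA, M1BP and Ohler 6 were more frequent at divergent than at one-directional summits. GAGAG was less frequent at divergent ones, and for the other strings the replicates of the classes overlapped. The DRE string was found at 9.83%, 7.84% and 7.39% of divergent summits in replicates 1, 2 and 3, against 1.93%, 2.49% and 1.62% of one-directional summits, a difference of 6.34 points ± 1.37 (SD, n = 3, exact permutation p = 0.25, the smallest possible, adjusted 0.3125). In a window of 100 bp the difference was 3.06 points. The nearer start lay at a median of 112 bp from divergent and 212.5 bp from upstream one-directional summits, so the 200 bp window reaches starts unequally. What this adds to the differences between the classes was not tested. Ohler 7 was found at 19.1% ± 1.78, against 8.78% ± 0.571. The BEAF-32 core CGATA, which every DRE string contains, was found at 39.7% ± 0.903, against 25.9% ± 0.913, and the TATA string TATAAA at 48.2% ± 0.174, against 33.2% ± 3.35. GAGAG was found at 14.4% ± 1.37, against 28.9% ± 3.38. For each of these the replicates of the classes did not overlap. Nor did they for M1BP (2.90% ± 0.420, against 1.45% ± 0.116) and Ohler 6 (12.9% ± 0.723, against 10.5% ± 0.631), which differed by fewer points. CAGCTG (10.4% ± 1.40, against 9.19% ± 0.762) overlapped between classes. A run of A, AAAAAAAA, differed by -1.59 points ± 0.852, and the strings of Pho, Ewg and the other E-box by -0.41, -0.053 and -0.050 at GCCAT, GCGCATGC and CACGTG.

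**Figure D4:**
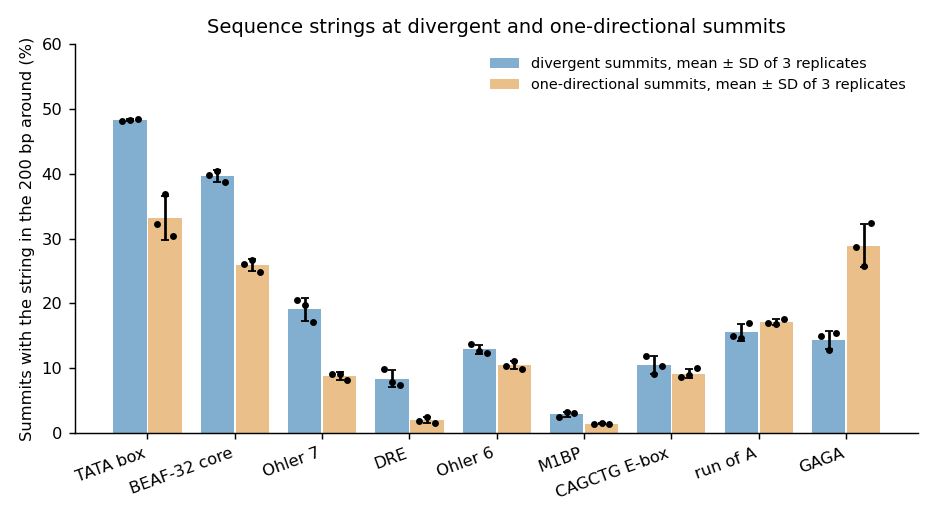
Percent of summits with each string in the 200 bp around them, divergent beside one-directional, as mean and SD of 3 replicates with dots for replicates. DRE stands at 8.35% and 2.02%, and GAGA at 14.4% and 28.9%.

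The strings were also present in divergent gaps that held no summit, at other frequencies. In the 200 bp around the gap middle, DRE was present in 6.97% of gaps with an IDR summit and 9.04% of gaps without one, CGATA in 34.0% and 44.1%, and GAGAG in 13.2% and 14.6%. M1BP was present in 0.871% and 5.37%, CAGCTG in 7.14% and 14%, and TATAAA in 55.1% and 36.9%. In 200 bp upstream windows of all coding starts, DRE was present in 6.14%, CGATA in 36.5% and GAGAG in 25.3%. At least 1 of the 5 core promoter strings was found at 43.0% of divergent summits, against 27.4% of one-directional summits, 42.3% of the middles of gaps without a summit and 33.6% of all upstream windows. Short gaps bring the starts into this window, so gaps over 200 bp were compared as well. There the TATA string was present in 56.2% ± 2.18 of occupied and 42.5% ± 0.467 of unoccupied gaps, Ohler 7 in 11.5% ± 0.472 and 6.09% ± 0.457, DRE in 5.60% ± 0.727 and 3.64% ± 0.391, and a run of 8 A in 17.4% ± 0.202 and 13.9% ± 0.103 (SD, n = 3), higher in occupied gaps in 3 of 3 replicates. TATAAA and the run of A hold only A and T, which made up 73.1% of the middles of these occupied and 69.2% of these unoccupied gaps. What base composition adds to these string differences was not tested. M1BP, at 1.02% ± 0.195 and 1.28% ± 0.105, and GAGAG, at 12.9% ± 0.481 and 13.0% ± 0.236, differed by less than the spread of the difference between replicates. CAGCTG was present in 5.59% ± 0.479 and 6.87% ± 0.274, lower in occupied gaps in 3 of 3 replicates. GAGAG differed in opposite ways by length, with 7.94% ± 1.37 in occupied and 12.9% ± 1.08 in unoccupied gaps at 401 to 500 bp, and 16.8% ± 1.72 and 12% ± 0.438 at 501 to 1000 bp. TATAAA was more frequent in occupied gaps in each class of length over 200 bp. The run of A was less frequent in them at 301 to 400 bp (15.5% ± 0.969, against 17.5% ± 0.773 in unoccupied gaps) and Ohler 7 at 401 to 500 bp (4.49% ± 1.81 and 4.96% ± 0.782). By class, DRE was higher in occupied gaps in 3 of 3 replicates at 301 to 400 bp alone. Its difference was 2.30 ± 3.45 points at 201 to 300 bp, 0.057 ± 0.260 at 401 to 500 bp and 0.218 ± 0.698 at 501 to 1000 bp. CAGCTG was on average higher in occupied gaps at 201 to 300 bp (0.594 ± 1.31 points) and 401 to 500 bp (0.910 ± 2.17), and lower at 301 to 400 and 501 to 1000 bp.

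DRE and M1BP lay nearer to a start than to the summit, and TATAAA and Ohler 6 nearer to the summit. Strings were searched in the 200 bp around the summit only, so none could lie more than 100 bp from it. Within the gap, DRE was at a median of 40 bp from the nearer start and M1BP at 19 bp, with the summit 60.5 and 67.5 bp away. The M1BP distance to the start rests on the 13 of 16 members with the string inside the gap. TATAAA was at 122 bp from the nearer start and 37.5 bp from the summit, with 62.1% of these summits within 50 bp of it. Ohler 6, at 109 bp from the start and 39 bp from the summit, was placed in the same way. CGATA and the run of A lay 46 and 46.5 bp from the summit. Members with DRE were of middling strength, with a median percentile of 51.2 over 71 summits, against 60.5 over the 699 without it.

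Cytosolic ribosomal protein genes were flanked by divergent summits more often than any other list with at least 12 genes at a gap, and their summits differed from the rest in position and base composition. Over all genes at a divergent gap, 29.0% flanked a member summit, and 11.7% of 9072 coding genes at no such gap had a one-directional summit nearest to them. These 2 shares are unlike measures: a divergent summit counts for both flanking genes, a one-directional summit for the nearest gene alone. For the cytosolic ribosome they were 40 of 56 genes at a gap (71.4%, 95% interval 57.8% to 82.7%) and 22 of 37 at none (59.5%). Divergent summits flanked 44, 39 and 33 of these genes in replicates 1, 2 and 3. RpS27 with Nup37, for a nuclear pore protein (rank 560), and RpL7 with Ripalpha, for a partner of replication protein A (rank 566), had the highest signals. For 37 of the 40 genes the ribosomal start was the nearer one for at least 1 summit.

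The 46 summits beside these genes lay a median of 52.5 bp from the ribosomal protein start (quartiles 20.25 and 145.5 bp), where the median over both flanking starts of all members was 160 bp. A or T made up 56.1% ± 9.81 of the 100 bp around them, against 70.1% ± 8.72 at the 724 other members (SD over summits). In replicates 1, 2 and 3 the means were 55.6%, 57.4% and 56.7%, against 69.7%, 70.0% and 69.8%. This comparison of base composition was chosen after its values were seen. DRE was found at 16 of the 46 (34.8%), against 55 of the 724 others (7.60%), and M1BP at 3 of the 46. Among them was the gap of 84 bp between RpL13 and Dref, the gene of the DRE-binding factor, with a summit 2 bp from the RpL13 start (rank 1474), also picked after its values were seen.

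Genes of the mitochondrial ribosome and the respiratory chain had shares whose intervals held the background. The mitochondrial ribosome had 20 of 59 genes at a gap with a member summit (33.9%, 95% interval 22.1% to 47.4%), a share near the 29.0% of all gap genes. For 12 of the 20 the summit was nearer to the partner gene, with a median of 167.5 bp to the mitochondrial ribosomal start, and A or T made up 73.9% of the bases around the summits. None of its 16 genes away from divergent gaps had a summit nearest to them, which allows up to 18.8% and so does not set it below the 11.7% of all such genes. For oxidative phosphorylation it was 18 of 47 at a gap (38.3%), with ND-ASHI and Fum1, for fumarase (rank 243), TppII and ND-MWFE (rank 1331) and Cchl and ND-42 (rank 1430) in front, and 0 of 47 away from gaps, which allows up to 6.38%, against the same 11.7%. Over the 19 genes of this list beside a member summit, 10 had the summit nearer to their own start.

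Among the other lists the share at gaps was 11 of 23 for tRNA synthetases (47.8%), with IleRS and Hem, for a subunit of the SCAR actin regulator (rank 472), SerRS and CG17260, and ThrRS and Patsas (rank 1546). Mediator, the bridge between activators and RNA polymerase II, had 8 of 18, with Rev1 and MED30 at rank 474. Chromatin regulators had 16 of 36, with Chro and Ssl1, then Arl1 and brm, for the ATPase of a remodelling complex (rank 108), and Cp190, for an insulator protein, and CG4338 (rank 235). Autophagy genes had 7 of 15, with CG12093 and Atg2 at rank 337, Xe7 and Atg17 at 718 and Atg18a and ERR at 1249. Vesicle traffic and glycosylation had 34 of 97 (35.1%), with Lon and PIG-F at rank 73 and Vps33B and Fur1 at 239. The intervals of all these lists held the background of 29.0%.

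Lower shares were found for the proteasome, at 5 of 26 (19.2%), with Rpn3 and l(2)37Bb at rank 1149, for the ubiquitin system, at 7 of 35 (12, 11 and 10 in the replicates), with Uba2 and Cds at rank 833, and for splicing, at 7 of 34, with PIG-Q and U2af50 at rank 453. Their intervals held 29.0% as well. Near the background were DNA replication and repair (12 of 38, with PolD2 and CG13933 at rank 93), RNA polymerases and general factors (11 of 38, with CG10584 and Polr3E at rank 351), cell cycle genes (9 of 28, with Cdc16 and orb at rank 1007), ribosome biogenesis (8 of 23, with POSH and Ns2 at rank 207), heat shock and folding (7 of 24, with Hsp83 and CG14965 at rank 512), translation factors (10 of 26), glycolysis and the citrate cycle (4 of 13, with Idh3g and CG4743 at rank 227), peroxisome genes (4 of 12, with Pex6 and Taf5 at rank 784) and mitochondrial import (2 of 6). Rrp1, which the symbol pattern for ribosome biogenesis takes in at rank 699 with gammaTub23C, encodes a DNA repair enzyme.

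Of 26 genes in the list of those that answer the moulting hormone ecdysone, 5 (19.2%) stand at a divergent gap, against 34.9% of all coding genes, a difference that was not tested. Of these 5, 4 flanked a member summit, in 4, 4 and 4 cases in the replicates, with an interval of 28.4% to 99.5% on so few genes. They included Hr96 with EMC6 (rank 857), Hr3 with Hdc, for histidine decarboxylase (rank 1096), and ImpE3 with CG10903 (rank 2496), with Hr96 and Hr3 encoding nuclear receptors. Of the 21 away from such gaps, 10 (47.6%) had a one-directional summit nearest to them, against 11.7% of all such genes.

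**Figure D5:**
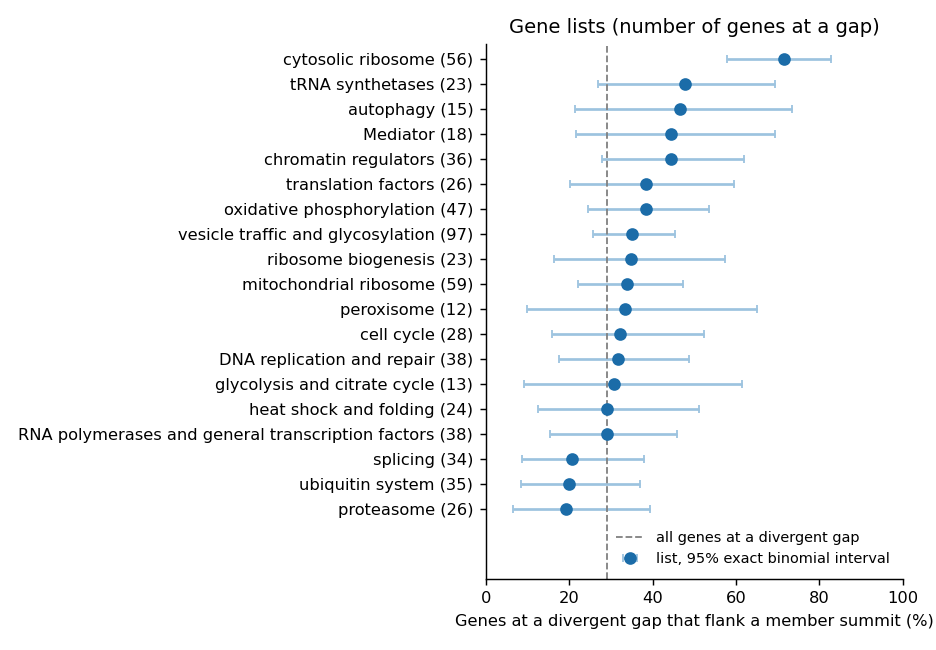
Percent of the genes at a divergent gap that flank a member summit, for each list with at least 12 such genes (number in brackets), with 95% exact binomial intervals. The dashed line is the 29.0% of all gap genes. Only the interval of the cytosolic ribosome, 57.8% to 82.7%, lies clear of it.

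In 6 gaps both genes belonged to 1 list, and 2 of the 6 (33.3%, 95% interval 4.33% to 77.7%) held a member summit, beside 22.9% of all gaps: Mcm2 and RPA1, for the replicative helicase and the single-strand binding protein, with the summit 139 bp from Mcm2 at rank 1549, and Vps50 and PIG-A, for an endosomal tether and the first enzyme of GPI anchor synthesis, with the summit 94 bp from Vps50 at rank 1575. In the lists of replicates 1, 2 and 3 they stood at ranks 1406, 1808 and 1753 for the first and 1647, 1571 and 1845 for the second.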

How the data were processed

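Peaks were measured by ChIP-seq in 3 biological replicates of 1 group. The authors deposited lists of peaks on dm6: 1 IDR-thresholded list, 1 pooled list and 30000 peaks per replicate, with a control behind them per the labels. Each row holds a position, a summit and a signal value, and the scale of the deposited signal values is not stated. Aligner, caller, thresholds and depth were not given in the sources used here. Lists on dm3 were not used. Summits were placed against all transcript starts of 13945 protein-coding genes (Ensembl release 115, BDGP6.54, transposable elements left out). Divergent summits lay between neighbouring starts at most 1000 bp apart. Gene lists were matched by symbol. The members and lists were chosen with earlier results of these data known. Genes named are the 20 strongest pairs with support in all 3 replicates, the top 3 per list, pairs within 1 list, gaps with several summits, the extremes of length and the 5 lowest signals. Some pairs that this rule picks are not reported here. Shares of single lists have exact binomial (Clopper-Pearson) 95% intervals, which cover counting error only. Where no gene of a list away from gaps had a summit, the share said to be allowed is instead 3 counts over the number of such genes. Replicate differences were tested with two-sided exact sign-flip permutation tests, 5 in all. Alternatives were other gap limits, support rules and left-out replicates, and 2 kinds were added after seeing the data: plain gaps alone and gaps over 200 bp. Scripts were tested on simulated data. Python 3.11.15, numpy 2.4.6, pandas 2.3.3, scipy 1.17.1 and matplotlib 3.10.9 were used.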

Additional observations from a re-analysis of the deposited data

How the results depend on the processing

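Of the alternatives tried, 14 were counted as moving a share or a distance without a test, and 0 turned a direction. The number of divergent summits was left out of that count, although it also shifted, from 770 in the IDR list, with an SD of 92.3 between replicates. The number of divergent summits was 559 to 991 under other gap limits and start sets, and 573 to 654 with a replicate left out. The differences moved by over 1.5 times in 4 cases: the percentile was 1.35 with 5000 peaks, the AT difference 2.44 in the stronger part of the list, the DRE difference 3.06 in a 100 bp window, and the AT difference between gaps 3.84 over 200 bp. With gaps of at most 500 bp the median distance to the nearer start was 102 bp and the central part held 56.4% of summits, and with gaps of at most 2000 bp these were 120 bp and 40.2%. Leaving out each replicate gave 17.5% to 19.9% of gaps with a summit, where a summit had to lie in the top N of both replicates kept, and 49.2% to 51.5% of summits in the central part. Support by all 3 replicates was 57.3% with 5000 peaks each, 83.5% with 10000, 93.1% with all peaks, 64.9% with summits within 100 bp, and 93.8% for the stronger part of the list, cut at its median signal. In plain gaps alone, an alternative chosen after seeing the data, there were 619 summits at a median of 113 bp. With 3 replicates the exact test cannot pass 0.05, so these p-values say nothing about stability. Depth is unknown, so a gap without a summit may lie under the threshold of the list. It may also lie under a peak whose summit is outside the gap.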
